A study of Mus musculus with 9 samples.

Results

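The S100 proteins are small calcium-binding proteins of vertebrates. Described here are 7 of their genes, S100a1, S100a3, S100a4, S100a6, S100a10, S100a11 and S100a13, in mouse embryonic stem (ES) cells with and without β-catenin. They were taken by symbol from array features that carry a single gene symbol, with the feature of the highest mean signal used where a gene had several, and they are 7 of the 19938 genes tested. A further 10 S100 genes on the array served for comparison.

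The study measured total RNA on Affymetrix whole-transcript arrays, with 3 biological replicates in each of 3 groups. Null Eα cells lacked both alleles of β-catenin and stably expressed a fusion of E-cadherin with α-catenin, null cells lacked both alleles, and flox cells, the control cells, had lost 1 allele and carried the other in floxed form. All 9 samples were of a mixed S129S6-C57BL/6 background, grew on gelatin in medium with 15% serum and 1000 U/ml of leukaemia inhibitory factor, and were collected before confluence. Nothing in the labels tells if a group's replicates came from separate lines or clones, so genotype and line cannot be told apart and the p-values measure only the spread between these samples.

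S100 proteins carry a pair of EF-hands, the helix-loop-helix folds that hold calcium, and most work as dimers. On binding calcium they open a hydrophobic cleft and attach to other proteins, among them annexins, myosin and tropomyosin, and some leave the cell and act on receptors such as RAGE. S100A10 is the exception, since it has lost calcium binding and is held in an active form together with annexin A2. β-catenin, encoded by Ctnnb1, links E-cadherin to α-catenin at cell contacts and also acts with TCF/LEF factors in Wnt signalling, and the fusion protein joins cadherin to α-catenin without it.

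The targeted gene was read first. Ctnnb1 averaged 10.23 ± 0.10 in null Eα cells, 10.51 ± 0.04 in null cells and 11.16 ± 0.05 in flox cells (log2 signal, SD, n = 3 each). On the log2 scale Ctnnb1 fell by 0.93 ± 0.07 (limma SE) in null Eα against flox cells (adjusted p = 2.66e-06) and fell by 0.65 ± 0.07 in null against flox cells (adjusted p = 2.82e-05). A feature of this array averages probes along a whole transcript, some of which may match exons that remain, so it is a weak check of the deletion. The 14 ES cell markers had a mean level of 10.37 to 10.62 on null Eα arrays, 8.15 to 8.40 on null arrays and 10.79 to 10.83 on flox arrays. In null Eα cells 8 of the 14 were called lower and 1 higher than in flox cells. In null cells 12 were lower and 2 higher than in flox cells, and Nr0b1 lay below the lower quartile of the arrays. By their mean levels, the ES cell label is borne out less by the null cells than by the other groups. The stem cell genes Dppa5a, Esrrb, Nr0b1 and Fgf4 stood at -0.39 ± 0.15, -0.56 ± 0.16, -0.49 ± 0.23 and -1.27 ± 0.09 in null Eα against flox cells, and at -6.62 ± 0.15, -5.54 ± 0.16, -7.27 ± 0.23 and -3.33 ± 0.09 in null against flox cells. In null Eα cells the call of Dppa5a was lost under 9 of 18 alternatives, -0.41 to -0.35 when 1 array of any group but null replicates 2 and 3 was left out, that of Esrrb was lost after quantile normalization, at -0.34, and Nr0b1 passed only with arrays centred, at -0.57, or without null Eα replicate 2, at -0.71. Pearson's r over all features was 0.986 to 0.990 among null Eα arrays, 0.991 to 0.992 among null arrays and 0.995 to 0.997 among flox arrays, and the interquartile range of the signal was 3.21 to 3.37, 3.41 to 3.46 and 3.75 to 3.84 in the same order of groups.

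Between null and flox cells 6 of the 7 S100 genes were higher and none was lower. Of all genes tested, 26.5% were called higher and 28.7% lower in that comparison (limma, Benjamini-Hochberg adjusted p under 0.05), as 5285 and 5719 genes. That balance moved with the processing, to 7087 higher and 5207 lower with chromosomes centred on their medians and to 2719 higher and 4569 lower among the brighter genes. Between null Eα and flox cells 5 were higher and 2, S100a1 and S100a11, were lower, where 32.1% of all genes were called higher and 31.6% lower. Between null Eα and null cells 4 were lower, S100a1, S100a6, S100a10 and S100a11, and none was higher, where 13.6% of all genes were called higher and 18.1% lower. At an unadjusted p under 0.05, limma put 1 of the 7, S100a13, higher in that comparison, and still put none lower in null than in flox cells. The median log2 difference of the 7 genes was 0.84 for null against flox, 0.77 for null Eα against flox and -0.59 for null Eα against null, while that of all genes was 0.06, 0.07 and 0.05. The comparisons share samples, so they do not give independent evidence. In RNA from whole cultures, a change in the number of cells that make a transcript and a change in its amount per cell cannot be told apart.

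**Figure D1:**
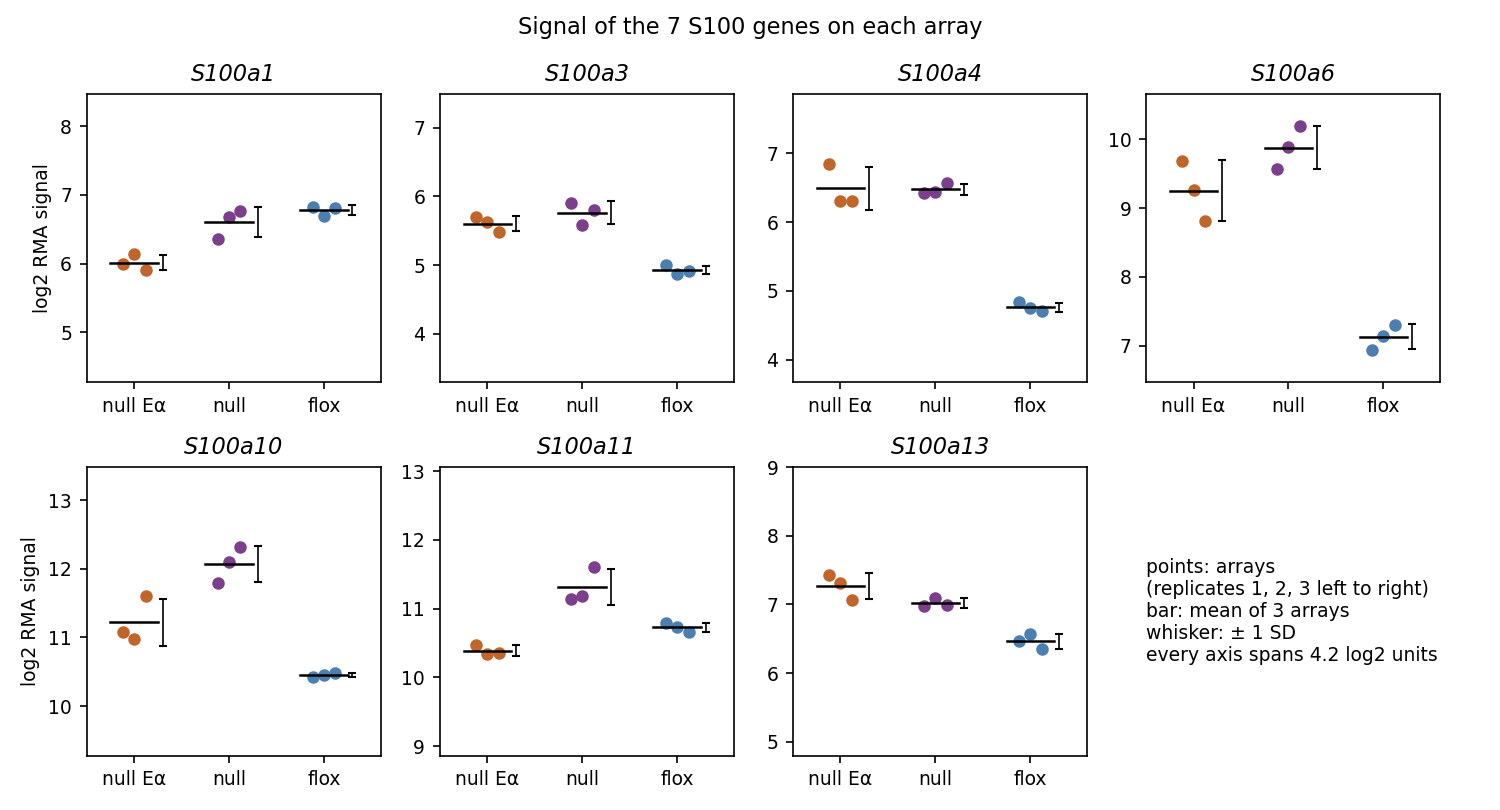
Log2 RMA signal (vertical axes, each spanning the same range of log2 units) of the 7 S100 genes on every array, by group (horizontal axes); points are arrays, bars are means of 3 arrays and whiskers are 1 SD to either side. S100a3, S100a4, S100a6, S100a10 and S100a13 lie above flox on every null Eα and null array, while S100a1 is lowest in null Eα cells and S100a11 is highest in null cells.

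S100a6, also called calcyclin, is abundant in fibroblasts and proliferating cells and binds annexins, tropomyosin and calcyclin-binding protein. Its signal was 9.69, 9.27 and 8.81 on the null Eα arrays, 9.57, 9.89 and 10.19 on the null arrays and 6.94, 7.14 and 7.31 on the flox arrays. Every null Eα and null array lay above every flox array, and the null Eα and null arrays overlapped. S100a6 had the largest rise of the 7 genes against flox in both groups, 2.13 ± 0.22 in null Eα cells, a 4.36-fold higher signal (adjusted p = 1.65e-05), and 2.75 ± 0.22 in null cells, 6.74-fold higher (limma, adjusted p = 1.94e-06). The share of features with a lower signal than S100a6 was 83.7 to 90.8% in null Eα cells, 89.2 to 93.1% in null cells and 62.3 to 65.4% in flox cells.

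S100a6 in null Eα cells fell by 0.63 ± 0.22 against null cells, with a 95% interval from -1.11 to -0.15 and an adjusted p of 0.0499 (limma). That call was lost under 12 of 18 alternative settings, whose adjusted p ranged from 0.0156 to 0.173. Without null Eα replicate 3, which had the lowest null Eα value, the difference was -0.40, and without null replicate 3, which had the highest null value, it was -0.47, with the call lost in both. It was also lost without null Eα replicate 2 at -0.63, without null replicate 2 at -0.62 and, at -0.63, without any single flox replicate.

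S100a4, a metastasis-associated protein that binds non-muscle myosin IIA and marks fibroblasts in mouse, was low in flox cells. It measured 6.85, 6.31 and 6.31 on the null Eα arrays, 6.42, 6.43 and 6.57 on the null arrays and 4.84, 4.75 and 4.70 on the flox arrays. Null Eα replicates 2 and 3 had the same value, 6.3127. Both null Eα and null arrays stood clear of flox, and the null values lay within the range of the null Eα values. S100a4 rose by 1.73 ± 0.13 in null Eα cells, 3.31-fold (adjusted p = 2.32e-06), and by 1.71 ± 0.13 in null cells, 3.28-fold (limma, adjusted p = 1.84e-06). Null Eα minus null came to 0.01 ± 0.13 with a 95% interval from -0.28 to 0.31 (limma, adjusted p = 0.945). That small difference turned to -0.16 without null Eα replicate 1, the array with the highest S100a4 signal.

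S100a3, known as a hair cuticle protein, was among the dimmer genes, with 5.71, 5.62 and 5.48 on the null Eα arrays, 5.91, 5.58 and 5.80 on the null arrays and 4.996, 4.88 and 4.91 on the flox arrays. The flox arrays were the lowest of all 9 and the null Eα and null arrays overlapped. S100a3 in null Eα cells rose by 0.68 ± 0.10 (adjusted p = 0.000185) and by 0.84 ± 0.10 in null cells (adjusted p = 3.55e-05), and null Eα minus null was -0.16 ± 0.10 with a 95% interval from -0.38 to 0.06 (limma, adjusted p = 0.237). With the genes of each chromosome centred on their median that last difference was 0.02.

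S100a3, S100a4 and S100a6 lie close together on chromosome 3 and moved the same way against flox, so their promoter windows are printed for comparison, each with 250 bases before and 50 after an annotated start (RefSeq, GRCm38.p6, plus strand). Capitals mark matches to the motifs searched on both strands: for TCF/LEF these were CTTTGAA or its variant CTTTGAT and the form CTTTGTA or its variant CTTTGTT. AP-1 was searched as TGANTCA, TEAD as CATTCC and a TATA box as TATAAA, and no match in these windows overlapped another. The windows are chr3:90599964-90600263 for S100a3, the start with the most matches of its 4 annotated starts, chr3:90603520-90603819 for S100a4 and chr3:90612644-90612943 for S100a6.
S100a3: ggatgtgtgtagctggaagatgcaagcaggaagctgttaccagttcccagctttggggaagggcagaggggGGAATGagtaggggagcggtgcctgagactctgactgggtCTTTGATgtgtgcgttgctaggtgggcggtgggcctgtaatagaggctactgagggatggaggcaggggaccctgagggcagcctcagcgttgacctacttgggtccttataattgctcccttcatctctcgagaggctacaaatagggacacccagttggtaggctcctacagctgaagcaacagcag
S100a4: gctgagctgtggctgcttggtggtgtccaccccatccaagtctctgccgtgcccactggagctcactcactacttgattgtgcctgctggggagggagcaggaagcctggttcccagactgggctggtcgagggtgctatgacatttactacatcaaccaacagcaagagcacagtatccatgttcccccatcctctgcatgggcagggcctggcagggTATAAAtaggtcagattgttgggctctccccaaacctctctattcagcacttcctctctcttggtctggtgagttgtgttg
S100a6: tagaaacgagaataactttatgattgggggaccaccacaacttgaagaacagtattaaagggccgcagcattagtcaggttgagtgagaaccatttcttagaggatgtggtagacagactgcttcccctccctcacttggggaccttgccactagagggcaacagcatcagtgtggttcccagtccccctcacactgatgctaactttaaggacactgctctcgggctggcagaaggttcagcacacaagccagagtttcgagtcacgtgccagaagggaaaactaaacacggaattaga
The S100a4 window holds TATAAA 31 bases before the start and no match to the other motifs. The S100a3 window holds GGAATG, the TEAD letters on the other strand, 179 bases before its start and CTTTGAT 139 bases before it, and a window at another S100a3 start has TATAAA 52 bases before it. The S100a6 window holds none of these letters. Among 32851 promoter windows of the same length, 16.9% held a TCF/LEF match, 7.81% an AP-1 match, 14.7% a TEAD match and 13.6% a TATA match, so each is common. A match is no evidence of a bound site.

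S100a10, or p11, forms a heterotetramer with annexin A2 that links membranes to the actin cortex and serves as a plasminogen docking site. Its signal was among the brightest, with 11.08, 10.98 and 11.60 on the null Eα arrays, 11.79, 12.10 and 12.31 on the null arrays and 10.43, 10.46 and 10.48 on the flox arrays. The 3 groups did not overlap and the null arrays were the highest. S100a10 in null Eα cells rose 1.70-fold, by 0.77 ± 0.17 (adjusted p = 0.00274), and 3.06-fold in null cells, by 1.62 ± 0.17 (adjusted p = 1.49e-05), and in null Eα cells it fell by 0.85 ± 0.17 against null cells (limma, adjusted p = 0.00361).

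Its partner Anxa2 followed the same order of groups. Anxa2 measured 9.32, 8.996 and 9.03 on the null Eα arrays, 10.12, 10.13 and 10.22 on the null arrays and 6.72, 6.82 and 6.90 on the flox arrays. The groups did not overlap. Anxa2 in null Eα cells rose by 2.30 ± 0.10 (adjusted p = 6.61e-08) and by 3.35 ± 0.10 in null cells (adjusted p = 2.82e-09), and in null Eα cells it fell by 1.04 ± 0.10 against null cells (limma, adjusted p = 4.33e-05). RefSeq windows matched 6 of the 7 genes, all but S100a10.

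S100a11, or calgizzarin, binds annexin A1 and takes part in membrane repair. It read 10.47, 10.34 and 10.35 on the null Eα arrays, 11.14, 11.18 and 11.61 on the null arrays and 10.78, 10.74 and 10.65 on the flox arrays. The 3 groups did not overlap, and flox lay between the other groups. S100a11 was higher in null than in flox cells by 0.59 ± 0.12 (adjusted p = 0.0017), while in null Eα cells it fell by 0.34 ± 0.12 against flox (adjusted p = 0.029) and fell by 0.92 ± 0.12 against null cells (limma, adjusted p = 0.000297). A second S100a11 feature gave 0.58, -0.30 and -0.88 for these 3 differences, and as both are annotated to the same transcripts they are not independent.

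The lower S100a11 level in null Eα than in flox cells depended on the settings. It came to -0.14 after quantile normalization (adjusted p = 0.355). The call was also lost without null Eα replicate 2 at -0.31, without null Eα replicate 3 at -0.32, without flox replicate 1 at -0.31 and without flox replicate 2 at -0.33, with adjusted p up to 0.0849. The S100a11 window, chr3:93520246-93520545 on the plus strand, is shown because it was the only one of 9 windows of these genes with an AP-1 match, TGAGTCA at 136 and at 38 bases before the start, in capitals.
S100a11: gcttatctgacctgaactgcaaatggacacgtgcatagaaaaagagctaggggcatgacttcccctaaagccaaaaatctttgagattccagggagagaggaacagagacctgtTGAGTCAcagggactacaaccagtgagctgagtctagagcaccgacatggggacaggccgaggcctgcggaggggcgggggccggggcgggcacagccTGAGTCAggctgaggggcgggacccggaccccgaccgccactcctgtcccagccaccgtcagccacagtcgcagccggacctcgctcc

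S100a13 takes part in the release of FGF1 and interleukin 1α, proteins that leave cells without a signal peptide. Its signal was 7.43, 7.31 and 7.06 on the null Eα arrays, 6.97, 7.10 and 6.998 on the null arrays and 6.46, 6.58 and 6.35 on the flox arrays. Flox arrays were the lowest and the null Eα and null arrays overlapped slightly. S100a13 rose by 0.80 ± 0.10 in null Eα cells, 1.74-fold (adjusted p = 8.28e-05), and by 0.56 ± 0.10 in null cells, 1.47-fold (limma, adjusted p = 0.000941). Null Eα minus null was 0.24 ± 0.10 and did not pass (adjusted p = 0.0972). It passed without null Eα replicate 3, the lowest of that group, at 0.34, and with chromosomes centred on their medians, at 0.43.

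S100a1, the S100 protein of heart and skeletal muscle that acts on calcium release and uptake, was the only one of the 7 genes with its highest mean in flox cells. It measured 6.00, 6.14 and 5.91 on the null Eα arrays, 6.36, 6.68 and 6.77 on the null arrays and 6.83, 6.69 and 6.81 on the flox arrays. The null Eα arrays lay below all others, and the null and flox arrays overlapped. S100a1 in null Eα cells fell by 0.76 ± 0.11 against flox (adjusted p = 0.000196) and fell by 0.59 ± 0.11 against null cells (limma, adjusted p = 0.00271). Null minus flox was -0.17 ± 0.11 with a 95% interval from -0.42 to 0.07 (adjusted p = 0.208). With chromosomes centred on their medians it was -0.40 and passed (adjusted p = 0.0153).

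S100a1 and S100a13 have annotated starts 105 bases apart that read away from each other, on the minus and plus strands. Their windows, chr3:90514281-90514580 and chr3:90514185-90514484, share 204 bases, which stand in capitals in the S100a13 window below.
S100a13: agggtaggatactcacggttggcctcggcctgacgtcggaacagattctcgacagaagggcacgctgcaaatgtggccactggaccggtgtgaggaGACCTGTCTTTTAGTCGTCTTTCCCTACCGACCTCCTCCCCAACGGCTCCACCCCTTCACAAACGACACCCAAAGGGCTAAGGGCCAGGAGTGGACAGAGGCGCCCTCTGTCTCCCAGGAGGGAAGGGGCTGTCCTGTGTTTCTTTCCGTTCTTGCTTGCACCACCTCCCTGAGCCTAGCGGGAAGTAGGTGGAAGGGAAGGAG
None of the motifs was found in either window, and their GC content was 61.0% for S100a1 and 59.3% for S100a13, against a median of 52.7% over all windows. Against flox, the null Eα cells differed by -0.76 at S100a1 and by 0.80 at S100a13, so the 2 genes that share this stretch were called in opposite directions.

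**Figure D2:**
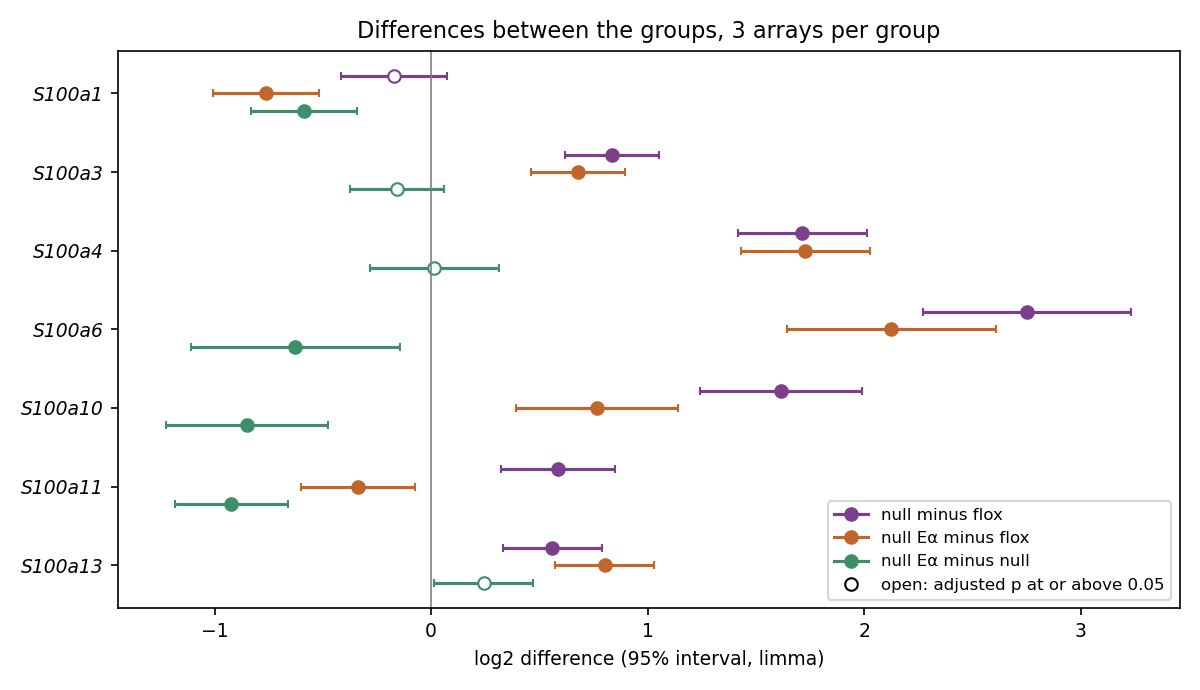
Log2 difference (horizontal axis) of each S100 gene in null minus flox, null Eα minus flox and null Eα minus null cells, with 95% limma intervals, 3 arrays per group; open points did not pass the adjusted p of 0.05. S100a4 and S100a6 stand farthest to the right in both comparisons with flox, and S100a11 lies on opposite sides of 0 for null and null Eα cells.

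Of the 7 genes, 3 were at least 2-fold higher in null than in flox cells and called, S100a4, S100a6 and S100a10, against 5.03% of all genes. In null Eα against flox cells these were S100a4 and S100a6, against 2.22%. At least 2-fold lower were 9.75% of all genes in null Eα cells and 10.2% in null cells, and none of the 7. None of the 7 differed by 2-fold or more between null Eα and null cells, where 1.7% of all genes were that much higher and 3.13% that much lower. The arrays did not overlap between null and flox cells for 6 of the 7 genes, against 67.4% of all genes, between null Eα and flox cells for 7 of 7, against 69.5%, and between null Eα and null cells for 3 of 7, against 43.1%. For each of these non-overlapping pairs the permutation test (exact, two-sided) returned p = 0.1, the smallest that 3 against 3 arrays allow.

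Dim and bright genes shifted differently in this table, so each gene was set beside the genes of its own level. All genes were cut into 10 bins of equal size by their mean signal. In the bin that holds S100a6 the median difference was -0.35 for null Eα against flox and -0.20 for null against flox. In the bin with S100a10 and S100a11 it was -0.21 and -0.10, and in that with S100a1 and S100a13 it was -0.18 and -0.09. In the bin with S100a4 it was 0.10 and 0.07, and in that with S100a3 it was 0.24 and 0.14. The differences of S100a3, S100a4, S100a6, S100a10 and S100a13 from flox thus lay on the other side of, or well above, the median of genes of like level. So did that of S100a11 in null cells, 0.59, whereas that of S100a11 in null Eα cells, -0.34, was close to it. S100a1 was close to the median of its bin in null cells, at -0.17, and well below it in null Eα cells, at -0.76.

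**Figure D3:**
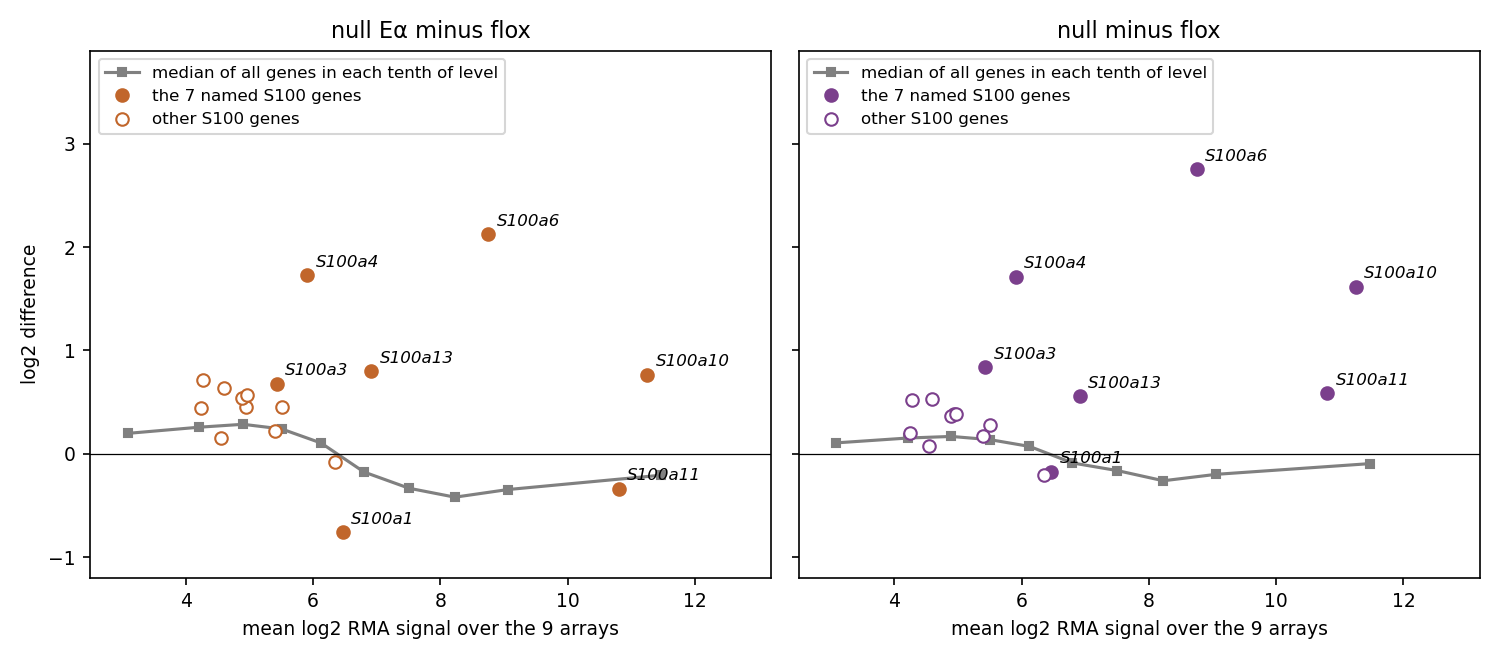
Log2 difference from flox (vertical axes) against mean log2 RMA signal over the 9 arrays (horizontal axes) for null Eα cells and null cells; filled points are the 7 S100 genes, open points the other S100 genes, and grey squares the median of all genes in each of 10 bins of level. S100a4 and S100a6 stand 1.71 to 2.75 above 0, and the open points lie between -0.21 and 0.72.

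The other 10 S100 genes were dim, with signals from 3.68 to 6.51, and 9 of them lay under the median of every array throughout. In null against flox cells, where 26.5% of all genes were called higher and 28.7% lower, 6 of these 10 were called higher and 1 lower. The 1 called lower was S100a16, at -0.21 (limma, adjusted p = 0.0484). In null Eα against flox cells 8 were higher and none was lower, where 32.1% of all genes were called higher and 31.6% lower. Between null Eα and null cells limma called none, where 13.6% of all genes were called higher and 18.1% lower. There S100a8 alone was higher at an unadjusted p under 0.05 (limma). Many calls of these S100 genes were lost under some of 17 alternatives. In null against flox cells this held for S100a16 under 10, S100a7a under 9, S100a2 and S100a9 under 5 each, S100a14 under 2 and S100g under 1. In null Eα against flox cells it held for S100a5 under 12 and S100a2 and S100a9 under 1 each. Calls that did not outlast the loss of a single array in null against flox cells were those of S100a16 (null Eα replicate 1, null replicates 1 and 2 or any flox replicate, -0.23 to -0.14), S100a7a (null Eα replicate 1, null replicates 1 and 3, flox replicates 2 and 3, 0.22 to 0.29), S100a2 (null replicates 1 and 2, flox replicate 3, 0.25 to 0.35), S100a9 (null replicate 2, flox replicates 1 and 3, 0.28 to 0.35) and S100a14 (flox replicate 3, 0.43). In null Eα against flox cells S100a5 lost its call without null Eα replicate 2 or 3, null replicate 2 or 3 and flox replicate 1 or 3, at 0.17 to 0.22. Their median differences were 0.46 for null Eα against flox, 0.32 for null against flox and 0.15 for null Eα against null. S100b, the glial and melanocytic S100 protein, was higher by 0.64 ± 0.11 in null Eα cells and by 0.53 ± 0.11 in null cells, and S100a14, an epithelial member, by 0.72 ± 0.15 and 0.52 ± 0.15. S100a8 and S100a9, the calgranulins of neutrophils and monocytes, were higher in null Eα cells by 0.44 ± 0.09 and 0.54 ± 0.13, while in null cells the difference was 0.20 ± 0.09 for S100a8, which did not pass, and 0.37 ± 0.13 for S100a9. Detection calls were not used here. The median over genes of like level was 0.29 in null Eα cells and 0.17 in null cells for the bin with S100a9 and S100b. For the bin with S100a8 and S100a14 it was 0.26 and 0.15. S100a8 lay below the lower quartile of the arrays in every group, and S100a14 and S100b did so in flox cells.

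All 7 genes lie on chromosome 3, S100a1, S100a13, S100a3, S100a4 and S100a6 in the main S100 cluster and S100a11 and S100a10 at the far end of a stretch of skin genes. The 943 tested genes of chromosome 3 had a median difference of 0.15 for null Eα against flox, 0.18 for null against flox and -0.02 for null Eα against null. Of 52 genes of the stretch that are not S100 genes, 23 were higher and 2 lower in null Eα than in flox cells. In null against flox cells 20 were higher and 2 lower, and the median differences were 0.24 and 0.23. Of all genes, 32.1% were called higher and 31.6% lower in the first comparison and 26.5% and 28.7% in the second. These shares are not matched for level. In the bins of dim genes with mean signals from 3.83 to 5.80, the median difference from flox was 0.24 to 0.29 in null Eα cells. It was 0.14 to 0.17 in null cells. The part of level in the counts of the stretch was not tested. Next to S100a1, Snapin, a SNARE-binding protein of vesicle fusion, fell by 1.34 ± 0.09 in null Eα cells and fell by 1.28 ± 0.09 in null cells, while Chtop, a chromatin-binding export factor, did not pass at 0.09 ± 0.07 and -0.05 ± 0.07. Chtop passed in null Eα cells after quantile normalization, at 0.39 (adjusted p = 0.00135), and in null cells with chromosomes centred, at -0.28 (limma, adjusted p = 0.0207). Tchh, the hair follicle protein trichohyalin and itself an S100 fused-type protein, rose by 1.15 ± 0.11 and 1.62 ± 0.11. Its neighbour Tchhl1, of the same type, was higher by 0.44 ± 0.09 and 0.42 ± 0.09, the second of which was lost with chromosomes centred, at 0.19.

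On the other side of S100a10, Tdpoz2 did not pass at 0.19 ± 0.11 in null Eα cells and 0.24 ± 0.11 in null cells. It passed in null Eα cells without null Eα replicate 1, at 0.29, and in null cells, at 0.24 to 0.25, under 4 of 17 alternatives, among them without null Eα replicate 1 and without null Eα replicate 2. Tdpoz1 was lower in null Eα cells at -0.51 ± 0.17 (limma, adjusted p = 0.0255), and did not pass in null cells at -0.21 ± 0.17, except with chromosomes centred, at -0.44. Its call in null Eα cells was lost without null Eα replicate 1, null Eα replicate 2 or any single flox replicate, at -0.54 to -0.37. At the other edge of the main cluster, Pglyrp4 did not pass at 0.23 ± 0.12 in null Eα cells, but did without null Eα replicate 3, at 0.33, and stood at -0.08 ± 0.12 in null cells. Pglyrp3 stood at -0.08 ± 0.11 in null Eα cells, where it passed after quantile normalization, at -0.29, and was lower in null cells at -0.29 ± 0.11, a call lost under 6 of 17 alternatives, without null replicate 1 or 3 and without any single flox replicate among them, at -0.33 to -0.23. Among the 8 nearest genes that are not S100 genes, 2 were higher and 2 lower in each comparison with flox.

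**Figure D4:**
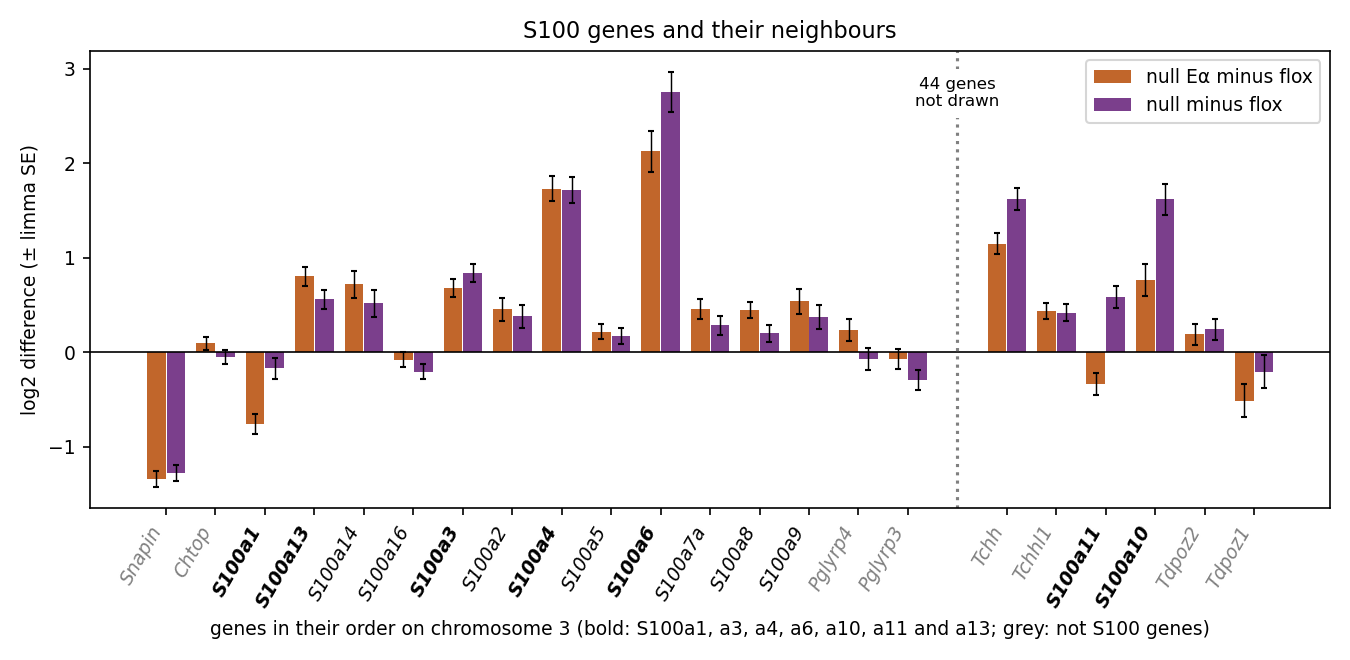
Log2 difference from flox (vertical axis, bars with limma SE) for S100 genes and their nearest neighbours in the order of the genes on chromosome 3 (horizontal axis), for null Eα and null cells; 44 genes between Pglyrp3 and Tchh are not drawn. S100a6 and S100a4 are the tallest bars of the main cluster, and Snapin, at its edge, is the lowest bar in both groups.

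The annexins, which S100 dimers bridge between membranes, were counted as a group of 5. In null Eα cells 3 were higher and 2 lower than in flox cells, in null cells 4 were higher and 1 lower, and null Eα against null cells had 4 lower and none higher. Their median differences were 1.34, 2.52 and -1.04. Beside this list and those below, 32.1% of all genes were called higher and 31.6% lower in null Eα against flox cells. These shares were 26.5% and 28.7% in null against flox cells and 13.6% and 18.1% in null Eα against null cells. Anxa1, the partner of S100A11, was higher than in flox cells by 5.11 ± 0.11 in null Eα cells and by 6.34 ± 0.11 in null cells. S100a11 and Anxa1 therefore differed in direction in null Eα against flox cells, where S100a11 stood at -0.34. Anxa5, a phosphatidylserine-binding annexin, was higher by 1.34 ± 0.14 and 2.52 ± 0.14. Anxa11, a partner of S100A6, fell by 1.43 ± 0.14 in null Eα cells and fell by 1.49 ± 0.14 in null cells, whereas S100a6 was higher in both.

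Of 12 cytoskeletal partners, 4 were higher and 2 lower in null Eα than in flox cells, 8 were higher and 3 lower in null than in flox cells, and null Eα against null cells had 8 lower and 2 higher. Ahnak, the giant scaffold that docks on the S100A10 and annexin A2 complex, rose by 1.13 ± 0.13 in null Eα cells and by 2.05 ± 0.13 in null cells. Myh9, the myosin IIA heavy chain that S100A4 binds, rose by 1.33 ± 0.11 in null cells and differed by 0.17 ± 0.11 in null Eα cells, where it did not pass (adjusted p = 0.198). After quantile normalization the difference of Myh9 in null Eα cells was 0.46 and passed (limma, adjusted p = 0.00431). Tpm2, a tropomyosin, was higher by 1.204 ± 0.11 in null cells, and its 0.23 ± 0.11 in null Eα cells did not pass, but came to 0.30 after quantile normalization and 0.45 with chromosomes centred and then passed. S100a4 did not pass between null Eα and null cells, while Myh9 in null Eα cells fell by 1.16 ± 0.11 against null cells (limma, adjusted p = 4.33e-05). Ppfibp1, the liprin β1 that S100A4 also binds, was higher than in flox cells by 0.64 ± 0.13 in null Eα cells and by 1.84 ± 0.13 in null cells.

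Of 10 receptors and secretion partners, 6 were higher and 1 lower in null Eα than in flox cells, and 7 were higher and 1 lower in null than in flox cells. Ager, the gene of RAGE, was higher by 0.64 ± 0.14 in null Eα cells and by 0.51 ± 0.14 in null cells, and Bsg, the gene of basigin, a receptor of S100A9, stood at -1.33 ± 0.07 and -1.23 ± 0.07, called lower in both. Plat, the tissue plasminogen activator that S100A10 binds, was higher by 1.06 ± 0.21 and 1.77 ± 0.21. Of the cargo of S100A13, Fgf1 differed from flox by 0.03 ± 0.09 in null Eα cells and -0.21 ± 0.09 in null cells and passed in neither, but in null cells it passed after quantile normalization, at -0.35 (adjusted p = 0.00594), and with arrays centred on their medians, at -0.25 (adjusted p = 0.037). Il1a was higher in null cells by 0.50 ± 0.13, and in null Eα cells its difference of 0.23 ± 0.13 did not pass. Without null Eα replicate 3, the lowest of that group for Il1a, it was 0.38 and passed (limma, adjusted p = 0.00795). Tlr4, a receptor of S100A8 and S100A9, was higher by 0.62 ± 0.13 in null Eα cells and by 0.86 ± 0.13 in null cells. Plg, the gene of plasminogen, was higher by 0.68 ± 0.12 in null Eα cells, and its 0.30 ± 0.12 in null cells did not pass. In null cells Plg passed under 5 of 17 alternatives, among them without null Eα replicate 2 and without null Eα replicate 3. Tlr4 and Il1a lay below the lower quartile of the arrays in every group, and Plg did so in flox cells. In the 2 dimmest of the 10 bins of level the median of all genes was 0.20 and 0.26 in null Eα cells. It was 0.11 and 0.15 in null cells. Cacybp, calcyclin-binding protein, fell by 0.57 ± 0.07 in null Eα cells and fell by 0.71 ± 0.07 in null cells, opposite in direction to its partner S100a6. It belongs to a list of 8 measured nuclear partners and chaperones of which 1 was higher and 2 were lower in each comparison with flox. Of 9 channels and pumps 4 were higher and 1 lower in null Eα cells and 3 were higher and 2 lower in null cells. Of all genes, 32.1% were called higher and 31.6% lower in null Eα cells, and 26.5% and 28.7% in null cells.

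Of 32 other EF-hand genes, 7 were higher and 18 lower in null Eα than in flox cells, with a median of -0.33, and 12 were higher and 9 lower in null than in flox cells, with a median of 0.11. Capn2, a subunit of the calcium-dependent protease calpain, was higher by 1.67 ± 0.14 and 2.88 ± 0.14. Cib1, a calcium- and integrin-binding protein, was lower at -1.27 ± 0.08 and -1.64 ± 0.08. The Cib1 value was 7.5283 on every null Eα array, so its spread in that group was 0 and its SE may be too small. Rcn2 and Calu, the genes of reticulocalbin and calumenin in the secretory pathway, were higher by 0.97 ± 0.09 and 0.30 ± 0.07 in null Eα cells and by 1.66 ± 0.09 and 1.16 ± 0.07 in null cells. Sri, the gene of sorcin, in null Eα cells fell by 0.81 ± 0.08 and differed by 0.08 ± 0.08 in null cells, where it passed after quantile normalization, at 0.27. Gca, grancalcin, showed the same order of groups as S100a11, at -0.68 ± 0.08 for null Eα against flox, 0.37 ± 0.08 for null against flox and -1.06 ± 0.08 for null Eα against null. Of 6 measured S100 fused-type genes, 4 were higher and none was lower in each comparison with flox, among them Hrnr at 0.70 ± 0.12 in null Eα cells and 0.89 ± 0.12 in null cells and Crnn at 0.79 ± 0.12 and 0.59 ± 0.12.

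Markers of other cell types differed between the same groups. The mean level of 17 fibroblast markers was 7.26 to 7.50 on null Eα arrays, 7.69 to 8.33 on null arrays and 5.26 to 5.41 on flox arrays, with 15 higher and none lower in null Eα than in flox cells and 14 higher and none lower in null than in flox cells. Lox, the collagen crosslinking enzyme, was higher by 4.44 ± 0.12 in null Eα cells and by 5.41 ± 0.12 in null cells, and the collagen genes Col1a2 and Col1a1 by 3.65 ± 0.12 and 3.16 ± 0.14 in null Eα cells and by 4.82 ± 0.12 and 4.28 ± 0.14 in null cells. Lum and Fap lay below the lower quartile in null Eα cells, Fap in null cells, and Lum, Dcn, Postn and Fap in flox cells. Of 9 smooth muscle markers, 5 were higher and 1 lower in null Eα than in flox cells and 8 were higher and 1 lower in null than in flox cells, with mean levels of 7.81 to 8.12 on null Eα arrays, 8.85 to 9.17 on null arrays and 6.89 to 6.94 on flox arrays. The actin gene Acta2 was higher by 4.74 ± 0.16 and 6.01 ± 0.16, its binding protein Tagln by 3.00 ± 0.16 and 4.74 ± 0.16, and the light chain gene Myl9 by 1.23 ± 0.18 and 2.64 ± 0.18. For 10 simple epithelium markers the mean levels were 8.52 to 8.99, 9.83 to 10.06 and 8.55 to 8.65 in the same order, and for 10 extraembryonic endoderm markers 7.07 to 7.17, 7.22 to 7.28 and 6.76 to 6.91. For 8 myeloid markers they were 4.92 to 5.02, 4.97 to 5.04 and 4.86 to 4.94, close to one another in all groups. Of the 10 epithelial genes, 3 were higher and 1 lower in null Eα than in flox cells, with 6 not called. In null against flox cells 8 were higher and 1 lower. Among them, the keratin Krt8 was higher by 0.41 ± 0.10 in null Eα cells and by 3.06 ± 0.10 in null cells. Cgn, the gene of cingulin, was higher by 0.73 ± 0.12 and 1.77 ± 0.12. Krt18 was higher by 2.79 ± 0.20 in null cells and stood at -0.40 ± 0.20 in null Eα cells, where it passed with the replicate block and, at -0.63, without null Eα replicate 3. The claudin Cldn4 was lower in null cells at -1.23 ± 0.13 and stood at 0.11 ± 0.13 in null Eα cells, where it passed after quantile normalization, at 0.39. The part of any such cells in the S100 differences was not tested.

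The genes closest to each S100 gene over the 9 arrays were ranked by the root mean square distance of profiles centred on their own means. Left out of this ranking were the 7 genes themselves and genes with predicted or clone-based symbols. Olfactory, vomeronasal and trace amine receptors and small RNA genes were left out too. S100a13 had the closest, Eppin at 0.044 and Otol1 at 0.0514 log2 units. For S100a3 these were Eif5b at 0.0881 and Myo5a at 0.0882, for S100a10 Abca8b at 0.0984 and Tap2 at 0.099, and for S100a1 Arsa at 0.101 and Ube3b at 0.104. For S100a11 they were Mcrip1 at 0.101 and Ap2b1 at 0.108, for S100a4 Mrps26 at 0.153 and Oaf at 0.173, and for S100a6 Gask1b at 0.214 and Slc40a1 at 0.233. Among the 7 genes themselves S100a3 and S100a13 were the closest pair at 0.214. Anxa2 was closer to S100a6, at 0.318, than to S100a10, at 0.806. The arrays fall into 3 clusters by group, so no correlation over them is given.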

How the data were processed

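RNA of 9 ES cell samples, 3 per group, was read on Affymetrix whole-transcript arrays. The authors deposited log2 signals made with RMA, per the submitters' processing notes, with no version given; values ran from 2.02 to 13.92, and whether the 9 arrays were normalized together is not given in the sources used here. No further normalization was applied. Of 35556 features, 21789 had a single gene symbol in the platform annotation, 1621 had several and were left out, and 12146 are not named here; the brightest feature stood for each of 999 genes with several, leaving 19938 genes, of which 19853 matched the reference gene table. Arrays give no read depth, and 3 arrays per group limit the precision.

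limma 3.58.1 in R 4.3.3 fitted a mean per group over all genes, with Benjamini-Hochberg adjustment over the 19938 genes and calls at 0.05. Differences are on the log2 scale, with 6 residual degrees of freedom. The fit was tested on simulated data. The members and gene lists were chosen with earlier results of these data known. Partners, EF-hand genes and markers were named by rule. Some were always listed, and the rest were up to 3 per list with the smallest p for null against flox. The same was done for null Eα against null. The lists of channels and of nuclear partners give counts only, and those of endoderm and myeloid genes mean levels only. A marker below the lower quartile of the arrays is named for that reason. Neighbours are the 2 nearest on each side. The alternatives were quantile normalization, centring arrays or chromosomes, leaving out dim genes, another variance model, only the 2 groups compared, other feature choices, the replicate number as a block, and leaving out each array. Promoter sequences are from RefSeq (GRCm38.p6). Same-numbered arrays of different groups had deviations correlated between -0.035 and 0.258, and differently numbered ones between -0.196 and 0.142. The highest values were those of null Eα replicate 3 with null replicate 3, 0.258, and with flox replicate 3, 0.206. A link between same-numbered arrays can thus not be excluded. The labels give no pairing, so the main fit used none. Python 3.11.15 was used for counts and figures.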

Additional observations from a re-analysis of the deposited data

How the results depend on the processing

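Of 21 differences of the 7 S100 genes, 15 kept their direction and their side of the threshold under every one of 17 or 18 alternatives; S100a3 and S100a4 had 17, being left out with the dim genes. Null minus flox for S100a1 passed only with chromosomes centred, at -0.40, and ranged from -0.26 to -0.05 when single arrays were left out. Null Eα minus flox for S100a11 was -0.14 after quantile normalization and -0.38 to -0.31 without single arrays. Null Eα minus null for S100a3 was 0.0248 with chromosomes centred and -0.25 to -0.09 without single arrays, and for S100a4 -0.0325 with arrays centred and -0.16 to 0.10 without single arrays. For S100a6 it was -0.52 after quantile normalization, -0.44 with chromosomes centred, -0.63 with only the 2 groups compared, with all features fitted and with the replicate block, and -0.84 to -0.40 without single arrays. For S100a13 it was 0.43 with chromosomes centred and 0.16 to 0.34 without single arrays. The cause was not tested.

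Genes called between null and flox cells numbered 11004, with 7288 when dim genes were left out, 17661 of all 35556 features and 9535 to 11652 without single arrays; between null Eα and flox cells they numbered 12694, with 7169, 19938 and 10783 to 13041. Without dim genes 9969 genes were tested, so these counts are out of different numbers, and the cause of the change was not tested. With arrays centred on their medians the null Eα against flox calls split into 4674 higher and 6987 lower, where the uncentred values gave 6399 and 6295, and without dim genes into 1918 and 5251. Null against flox calls, 5285 higher and 5719 lower, split into 7087 and 5207 with chromosomes centred and 2719 and 4569 without dim genes. The replicate block ended the call of S100a6 in null Eα against null (adjusted p = 0.0731) and no other call of the 7 genes.

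Small differences of other genes changed sign, as did the called ones of Mcrip1 and Ap2b1 in null Eα minus flox, -0.34 and -0.39. For null minus flox these were, with chromosomes centred, S100a5 at -0.059 and S100a8 at -0.0323, and, after quantile normalization, S100z at -0.0778 and Chtop at 0.14; without single arrays S100z ranged from -0.0212 to 0.21. For null Eα minus flox they were, after quantile normalization, S100z at -0.0608, Fgf1 at -0.17 and Tdpoz2 at -0.0147; Fgf1 at -0.0495 with arrays centred and -0.0154 to 0.0776 without single arrays; and, with chromosomes centred, Mcrip1 at 0.12 and Ap2b1 at 0.0746. For null Eα minus null they were, after quantile normalization, S100a5 at -0.0309, Tchhl1 at -0.0409, Bsg at 0.0002 and Snapin at 0.0569; with arrays centred, S100a5 at -0.001 and Tchhl1 at -0.0275; and, with chromosomes centred, Snapin at 0.12 and Tdpoz2 at 0.13. Without single arrays S100z ranged from -0.0566 to 0.17, Anxa11 from -0.0769 to 0.19, Tchhl1 from -0.0306 to 0.092, Tdpoz2 from -0.16 to 0.0511 and Slc40a1 from -0.39 to 0.0695. Signal over background was not measured, which limits the dim genes, S100a3 and S100a4 in flox cells among them.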
